A study of Schizosaccharomyces pombe with 8 samples.

Results

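The 3 Schizosaccharomyces pombe strains S2A, S7A and Y1F, in which 1 residue of the repeats of the Rpb1 tail was replaced, were pooled and set against WT. All 8 libraries of the series entered the comparison: 6 mutant libraries, 2 from each strain, and 2 WT libraries. Every strain was of the h- mating type and carried Rpb3-3HA::hphMX6, an epitope tag on the polymerase subunit Rpb3. The mutants carried rpb1 S2A::kanMX6 (serine 2 to alanine), rpb1 S7A::kanMX6 (serine 7 to alanine) or rpb1 Y1F::kanMX6 (tyrosine 1 to phenylalanine), and WT had neither the substitution nor the kanMX6 marker. Cells grew in the rich medium YES to an optical density of 0.5, and total RNA was sequenced after removal of ribosomal RNA. Each genotype came from 1 numbered strain, and the labels do not say whether its 2 libraries were separate cultures, so the p-values below measure a spread that may be technical. The residue changes, the kanMX6 marker and the background of each strain cannot be told apart by a comparison of this kind, because all 3 mutants share the marker and WT lacks it.

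Rpb1 is the largest subunit of RNA polymerase II, and its C-terminal domain (CTD) is a tail of repeated peptides. Serines and the tyrosine of each repeat are phosphorylated and dephosphorylated as the polymerase starts, elongates and terminates, and capping, chromatin-modifying and RNA 3′ end processing factors bind the tail in different phosphorylation states. In fission yeast CTD mutants are known for defects in sexual differentiation and in the phosphate response, whose genes are held down by transcription of upstream noncoding RNA.

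Of 7000 gene IDs in the table, 6243 had enough counts to be tested, in libraries of 13391705 to 23081870 counts. Levels below are in CPM, the share of TMM-scaled library counts in parts per 1000000, and each difference is the log2 of the mean of the 3 mutant strains over WT, with its standard error from the edgeR quasi-likelihood fit, called at a Benjamini-Hochberg adjusted p under 0.05. With differences between the mutants kept out of the error, 1479 genes were higher in the mutants (23.7% of those tested) and 1450 were lower (23.2%). A change of at least 2-fold was found for 321 genes (5.14%); 203 were higher (3.25%) and 118 lower (1.89%). The median difference over all tested genes was 0.01.

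A minority of these differences were common to the 3 strains. A gene was counted as shared when the pooled difference and each of the 3 strain differences were called in 1 direction and all 6 mutant libraries lay on that side of both WT libraries. That left 661 genes (10.6% of those tested), 277 higher (4.44%) and 384 lower (6.15%). The 3 strain comparisons use the same 2 WT libraries, so a deviation of a WT library appears in all 3, and the count is a description. Of the other genes called for the pooled mean, 1475 were called the same way in 2 strains, 783 in 1 and 10 in none, and 196 were called in opposite directions in different strains. The changes shared by the 3 strains were small, with a median of 0.35 for the higher genes and -0.39 for the lower genes, and 53 genes changed by at least 2-fold in each strain, 24 higher and 29 lower. The 3 mutants also differed from each other: 4431 genes (71.0%) differed among S2A, S7A and Y1F, and 381 of the 661 shared genes did.

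A stricter question gives all 6 mutant libraries 1 mean, as repeats of 1 mutant state, so that differences between strains enter the error. The repeats are then the 6 libraries and not the 3 strains. The 2 libraries of a strain are not independent strains, so this fit can understate the error between strains. Then 47 genes were called (0.753% of those tested), 16 higher and 31 lower in the mutants, and all 47 were among the 661. They comprised 38 protein-coding genes, 5 noncoding RNAs and 4 IDs without an annotation. Of the 47, 30 were not called as differing among the 3 mutants. The number rested on the WT libraries: without either of them 3 genes were called, SPBC460.04c and SPBC460.05 both times, with gpd3 when WT replicate 1 was left out and arg4 when WT replicate 2 was. Leaving out a mutant library gave 22 to 26 genes. With 1 WT library left, its spread is assumed to be that of the other strains. The genes described next carry the word strict where they belong to these 47, while their differences and adjusted p-values come from the fit with a mean for each strain.

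Transcripts of rpb1 itself (strict) were lower in every mutant library. They stood at 387 and 382 CPM in S2A, 377 and 388 CPM in S7A and 449.6 and 449 CPM in Y1F, against 720.2 and 691 CPM in WT. No mutant library reached a WT library, and the difference was -0.80 ± 0.03 (adjusted p = 6.52e-09). The strain differences were -0.88 in S2A, -0.88 in S7A and -0.65 in Y1F, and the decrease was smaller in Y1F (adjusted p among mutants = 0.000583). Counts per gene do not show the substitutions, so this level does not check the labels of the single strains. Of the 10 protein-coding genes nearest to rpb1, 5 on each side, 9 were not called, and the range of the 10 was -0.25 to 0.21. The one that was called, rps402, encodes a ribosomal protein of the small subunit and had a difference of -0.25 ± 0.04 (adjusted p = 0.000252), close to the median of the ribosomal protein genes described below.

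**Figure D1:**
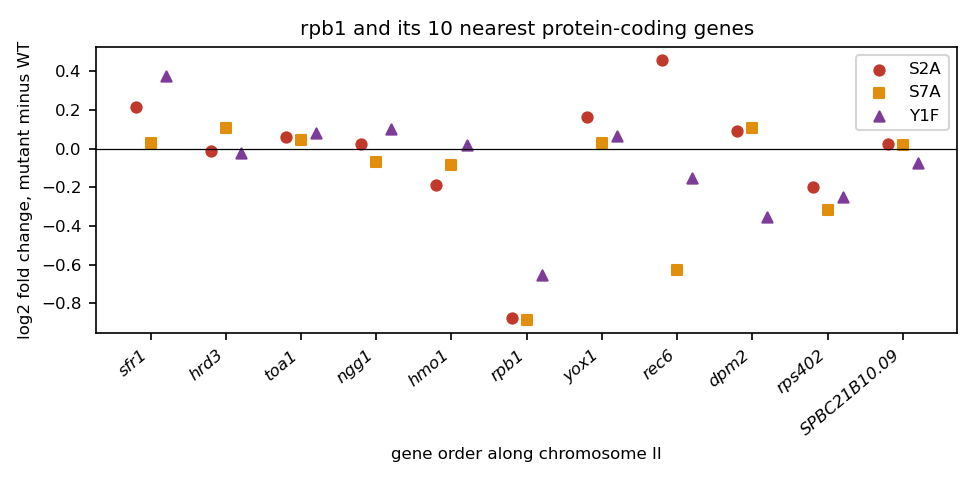
Log2 fold change of rpb1 and its 10 nearest protein-coding genes in gene order on chromosome II, 1 point for each mutant strain against WT (2 libraries each). The 3 points of rpb1 lie between -0.88 and -0.65; those of rec6 spread from -0.63 to 0.46.

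No other polymerase II subunit gene was lower in all 3 strains. The pooled calls of this list stand beside 23.7% of all genes higher and 23.2% lower. Of the 12 subunit genes, 5 were higher (3 without WT replicate 1) and 2 lower in the pooled mean, and only rpb1 (lower) and rpb10 (higher, 0.21 ± 0.03, adjusted p = 0.00037) were shared by the 3 strains. The tagged subunit gene rpb3 had 193 and 190.04 CPM in S2A, 95.96 and 98.4 CPM in S7A and 224 and 236 CPM in Y1F, against 105 and 106 CPM in WT. It was higher in S2A and Y1F but not in S7A, where the difference was -0.12, so the pooled value of 0.62 ± 0.04 (adjusted p = 1.33e-07) describes no common change.

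Genes for the machinery that acts on the tail or on the RNA 3′ end were called in both directions. Among 23 genes for CTD kinases, phosphatases and elongation factors, 6 were higher (2 without WT replicate 1) and 5 lower, beside 23.7% and 23.2% of all genes, with a range of -0.46 to 0.26 and a median of 0.01. The only member shared by the 3 strains was rtf1 (-0.26 ± 0.05, adjusted p = 0.00143), which the annotation gives as a termination factor of RNA polymerase I. The gene of the serine 2 kinase subunit lsk1 had a difference of 0.24 ± 0.04 (adjusted p = 0.000238) and was not shared. Of 21 genes for cleavage, polyadenylation and termination, 9 were higher and 2 lower, and the shared ones were yth1 (0.39 ± 0.06, adjusted p = 0.00034), a cleavage and polyadenylation factor subunit, and dis2 (0.16 ± 0.03, adjusted p = 0.00235), a protein phosphatase.

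The largest shared decreases were in a pair of IDs without an annotation and in a gene near the start of chromosome II. The ID SPBC460.05 (strict) had 0.632 and 1.08 CPM in S2A, 0.779 and 0.622 CPM in S7A and 0.735 and 0.666 CPM in Y1F, against 27.6 and 32.7 CPM in WT. SPBC460.04c (strict) had 0.195 and 0.541 CPM in S2A, 0.240 and 0.578 CPM in S7A and 0.441 and 0.177 CPM in Y1F, against 12.4 and 14.1 CPM in WT. In both the 6 mutant libraries held nearly no counts and were close to each other, with differences of -5.35 ± 0.14 and -5.24 ± 0.23 (adjusted p = 9.26e-11 and 8.13e-09), and neither was called among the mutants (adjusted p = 0.785 and 0.663). Neither ID is in the annotation used for names, so no role is given, and they were named after their values were seen. The IDs SPBC460.03 (strict, -1.06 ± 0.04), SPBC460.01c (-1.22 ± 0.06) and SPBC460.02c (-0.49 ± 0.04) were shared and lower as well, with less depth of change (adjusted p = 4.23e-09, 1.05e-08 and 1.06e-06).

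SPBPB10D8.02c (strict), an arylsulfatase by annotation, which is an enzyme that frees sulfate from organic sulfate esters, had 1.02 and 0.812 CPM in S2A, 0.659 and 0.622 CPM in S7A and 0.514 and 0.0887 CPM in Y1F, against 18.9 and 26.8 CPM in WT. All mutant libraries lay far below WT and the difference was -5.41 ± 0.22 (adjusted p = 4.23e-09). Its neighbour SPBPB10D8.01, annotated as a cysteine transporter, had 16.4 and 18.2 CPM in S2A, 3.35 and 3.47 CPM in S7A and 1.84 and 2.13 CPM in Y1F, against 59.9 and 75.6 CPM in WT. Here S2A kept more RNA than S7A and Y1F, with differences of -1.97 in S2A, -4.31 in S7A and -5.06 in Y1F (adjusted p among mutants = 2.36e-08). In the pooled mean 23.7% of all genes were higher and 23.2% lower, the background for the flocculin list that follows. The flocculin-type surface glycoprotein gene pfl7 (strict) had 1.90 and 2.23 CPM in S2A, 2.64 and 1.95 CPM in S7A and 0.661 and 0.932 CPM in Y1F, against 13.4 and 21.9 CPM in WT. Its groups did not overlap, although the 2 WT libraries differed between themselves, and the difference was -3.49 ± 0.20 (adjusted p = 7.99e-08). It was the only shared gene of the 10 flocculin genes and regulators tested, of which 2 were higher and 5 lower (2 lower without WT replicate 2).

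Amino acid and vitamin uptake genes were among the shared decreases too. The biotin transporter gene vht1 (strict) had 128 and 134 CPM in S2A, 151 and 143 CPM in S7A and 219 and 188 CPM in Y1F, against 386 and 346 CPM in WT, with no overlap and a difference of -1.22 ± 0.05 (adjusted p = 8.13e-09). The amino acid permease aat1 (strict, -0.87 ± 0.04), the annotated cysteine transporter SPCPB1C11.03 (strict, -0.79 ± 0.07), the transporter thi7 (strict, -0.74 ± 0.04) and the amino acid permease isp5 (-1.30 ± 0.13) were lower in all 3 strains (adjusted p = 1.85e-08, 3.12e-06, 4.05e-08 and 9.34e-06). Of 11 genes of the nitrogen response 6 were lower and 1 higher (23.2% and 23.7% of all genes were). By strain, 8, 7 and 3 of them were lower and 0, 2 and 4 higher in S2A, S7A and Y1F (edgeR calls). The shared ones were isp5 and the permease per1 (-0.37 ± 0.06, adjusted p = 0.000391). Of 8 thiamine genes 6 were lower and 1 higher, and the thiamine transporter thi9 was shared (-0.67 ± 0.06, adjusted p = 1.89e-06). In the same strain order 4, 6 and 1 thiamine genes were lower and 1, 0 and 0 higher.

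The remaining protein-coding genes with the largest shared decreases had uneven sizes among the strains. SPBPB21E7.09, an L-asparaginase by annotation, fell by least in S2A (-0.58 in S2A, -2.46 in S7A and -3.54 in Y1F), and ngl1, annotated as a peptide N-glycanase, fell by least in S7A (-2.07 in S2A, -0.26 in S7A and -2.03 in Y1F). The same held for atd2, an aldehyde dehydrogenase, with -1.87 in S2A, -0.51 in S7A and -2.05 in Y1F, and for fau1, an enzyme of folate metabolism, with -2.28 in S2A, -1.01 in S7A and -2.30 in Y1F. The glycosyl hydrolase gene SPBC1683.04 fell most in Y1F (-1.42 in S2A, -1.44 in S7A and -2.77 in Y1F). All 5 were called in the pooled mean (adjusted p = 2.98e-08, 7.99e-08, 1.12e-07, 4.85e-07 and 4.11e-10).

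**Figure D2:**
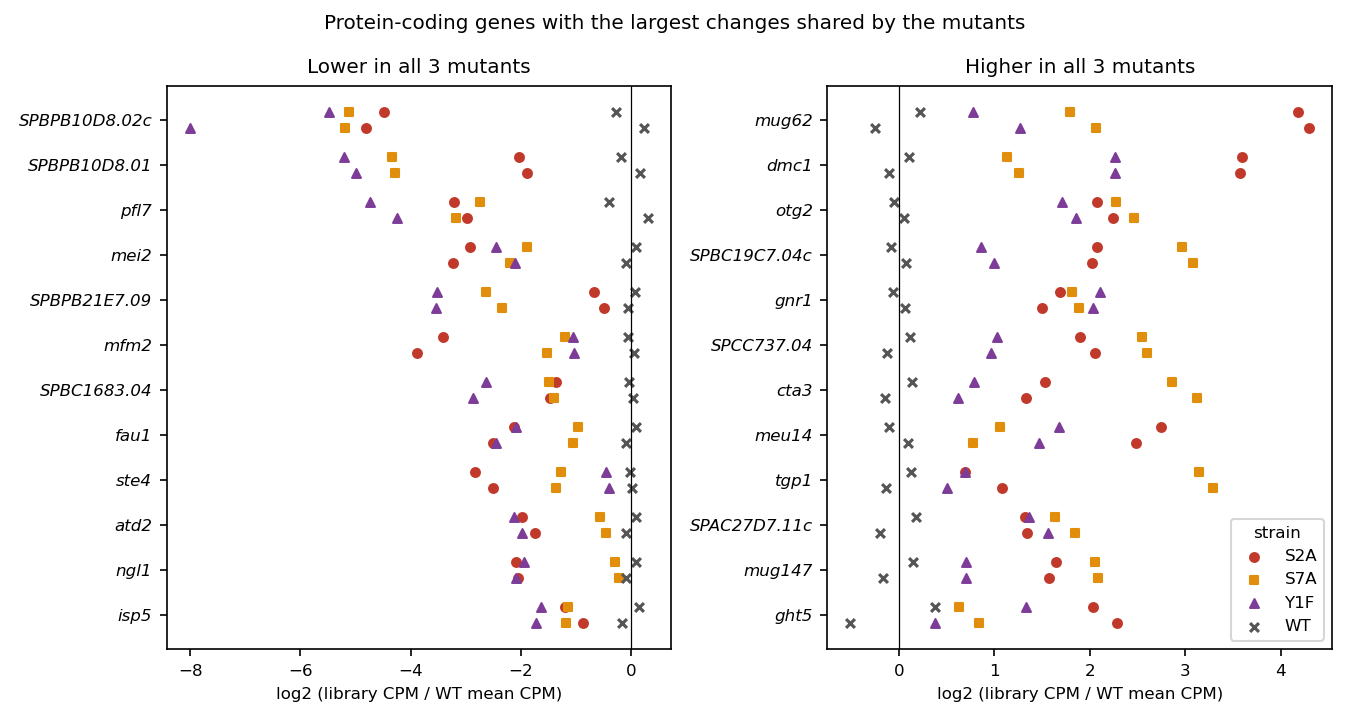
Level of the 12 protein-coding genes with the largest shared decrease (left) and increase (right) in each of the 8 libraries, as log2 of the library's CPM over the WT mean; circles, squares and triangles are S2A, S7A and Y1F, crosses are WT. The 6 mutant points of each gene lie on 1 side of both WT points, and in mug62 they spread from about 1 in Y1F to about 4 in S2A.

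Most genes that start sexual differentiation were lower, beside 23.2% of all genes lower and 23.7% higher in the pooled mean. Of the 11 tested genes of the Ste11 group, 7 were lower and 1 was higher (pat1, a kinase that holds meiosis back, 0.25 ± 0.06, adjusted p = 0.00623), with a median of -0.66, and mei2, ste4, spk1 and ste11 were shared. The RNA-binding protein gene mei2 (strict), which is needed for entry into meiosis, had 10.8 and 8.80 CPM in S2A, 22.5 and 18.04 CPM in S7A and 15.1 and 19.1 CPM in Y1F, against 88.1 and 77.4 CPM in WT. Its highest mutant library lay far below its lowest WT library, with a difference of -2.45 ± 0.09 (adjusted p = 2.29e-09). The MAP kinase gene spk1 (strict), of the pheromone pathway, had 7.44 and 8.05 CPM in S2A, 8.75 and 8.75 CPM in S7A and 7.57 and 9.98 CPM in Y1F, against 19.3 and 14.9 CPM in WT. The decrease of spk1 was of like size in the 3 strains (-1.15 in S2A, -0.97 in S7A and -0.93 in Y1F; adjusted p among mutants = 0.459), and the pooled difference was -1.02 ± 0.12 (adjusted p = 4.81e-05).

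The members differed between strains. In S2A 6 were lower and 4 higher, in S7A 7 were lower and 0 higher, and in Y1F 5 were lower and 0 higher, beside 26.6%, 24.3% and 17.4% of all tested genes lower in these strains. The 4 higher in S2A were pat1, the MAP kinase kinase kinase gene byr2, the cell fusion gene fus1 and ste6, an activator of Ras. The differences of ste6 were 0.36 in S2A, -0.66 in S7A and -0.41 in Y1F. The transcription factor gene ste11 itself, the main activator of these genes, had 22.3 and 17.4 CPM in S2A, 64.03 and 55.2 CPM in S7A and 58.5 and 63.4 CPM in Y1F, against 72.9 and 81.4 CPM in WT. The strain differences were -1.94 in S2A, -0.38 in S7A and -0.33 in Y1F, the mutants differed (adjusted p = 1.13e-07), and the pooled difference was -0.88 ± 0.08 (adjusted p = 3.15e-06). The pheromone cascade adaptor ste4 had differences of -2.68 in S2A, -1.33 in S7A and -0.42 in Y1F, and byr1, a kinase of the same cascade, -1.79 in S2A, -0.56 in S7A and -0.14 in Y1F; byr1 was not shared. In bulk RNA fewer cells of a state and less RNA per cell cannot be told apart.

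Mating-type markers were read beside this group, and beside 23.7% of all genes higher and 23.2% lower in the pooled mean. Of 6 tested M-cell genes, those expected in h- cells, 2 were lower, the pheromone precursor gene mfm2 (-2.00 ± 0.10, adjusted p = 1.78e-08) and the M-factor transporter mam1 (-0.49 ± 0.04, adjusted p = 1.14e-06), both shared, and 1 was higher. The 7 M-cell genes summed to 120.2 to 157 CPM in mutant libraries and 179.6 to 179.7 CPM in WT. Of 5 P-cell genes 2 were lower and 2 higher, with map1, a regulator of P-cell genes, shared (-1.48 ± 0.19, adjusted p = 6.16e-05). Their sum was 431 to 500.0 CPM in mutant libraries and 448 to 449 CPM in WT, most of it from sxa1, and no marker was at 0 in every library. The part of these markers in the results was not tested.

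Several genes of later meiosis were higher at the same time. Of 37 tested meiosis and sporulation genes 18 were higher and 4 lower (23.7% and 23.2% of all genes were), with a median of 0.28. In S2A 22 were higher and 4 lower, in S7A 14 and 7, and in Y1F 15 and 3. Of all genes 28.8%, 23.1% and 17.6% were higher in these strains. The strain medians were 0.55 in S2A, 0.20 in S7A and 0.29 in Y1F. The 5 shared ones, dmc1, rec10, meu14, cuf2 and mug62, were all higher, beside 4.44% of all genes shared and higher. The shared ones numbered 3 without WT replicate 2 and 2 without Y1F replicate 2. The meiotic recombinase gene dmc1 had 12.5 and 12.3 CPM in S2A, 2.28 and 2.49 CPM in S7A and 4.995 and 4.97 CPM in Y1F, against 1.11 and 0.961 CPM in WT. All 6 mutant libraries lay above WT, S2A highest and S7A lowest, and the pooled difference was 2.34 ± 0.20 (adjusted p = 2.18e-06). The sporulation gene meu14 showed the same order, with 2.63 in S2A, 0.91 in S7A and 1.56 in Y1F and a pooled difference of 1.70 ± 0.18 (adjusted p = 1.77e-05). For mug62, annotated as an AMP-binding enzyme, the differences were 4.22 in S2A, 1.94 in S7A and 1.08 in Y1F. The 38 genes of the list summed to 553 to 739 CPM in mutant libraries and 539 to 544 CPM in WT.

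The meiotic copper regulator cuf2 had 209 counts in the 6 mutant libraries and 3 in the 2 WT libraries, a ratio of 18.8 per count sequenced (95% exact interval 6.34 to 91.8, counting error only). Its S2A libraries were highest, at 4.43 and 3.99 CPM. The linear-element gene rec10, of meiotic chromosome structure, had differences of 1.18 in S2A, 0.58 in S7A and 0.35 in Y1F (pooled 0.70 ± 0.08, adjusted p = 2.02e-05).

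Ribosomal protein genes had the highest share of lower genes among the lists of 10 or more genes. Of 140 tested genes 120 were lower, 20 were not called and 0 were higher in the edgeR test, beside 23.2% of all genes called lower. None was higher at an unadjusted p under 0.05 or in DESeq2. The median difference was -0.21, and the strain medians were -0.19 in S2A, -0.23 in S7A and -0.23 in Y1F. Of the 140, 64 were shared and lower and 24 differed among the mutants. The small and even size is seen in rps2, which had 2622 and 2725 CPM in S2A, 2444 and 2554 CPM in S7A and 2792 and 2595 CPM in Y1F, against 3301 and 2961 CPM in WT, a difference of -0.26 ± 0.05 (adjusted p = 0.0022).

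The ribosomal protein genes rpl1002 (-0.39 ± 0.05), rps403 (-0.32 ± 0.05) and the ribosome-associated RACK1 gene cpc2 (-0.29 ± 0.04) were strict (adjusted p = 4.2e-05, 0.00018 and 0.000254). A few paralogs fell further in 1 strain, such as rps1401 in S2A (-1.38 in S2A, -0.73 in S7A and -0.25 in Y1F) and rpl1603 in S7A (-0.33 in S2A, -1.29 in S7A and -0.42 in Y1F). Many ribosomal protein genes have near-identical copies, and the sources used here do not say how shared reads were counted, so the values of single copies are uncertain.

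The level of this group also differed between the WT libraries. Ribosomal protein genes took 16.2% and 16.7% of counts in S2A, 15.5% and 15.8% in S7A and 16.3% and 15.7% in Y1F, against 18.7% and 17.4% in WT. All mutant libraries were lower than both WT libraries, by 2.02 percentage points on average. The exact permutation test over libraries gave two-sided p = 0.0714, the smallest that 6 against 2 libraries allow (adjusted over the 6 classes, p = 0.214). Without WT replicate 1, the library with the larger share, 59 of the 140 genes were called lower in place of 120, and none higher.

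Genes for building ribosomes and amino acids were also called lower more often than higher. Of 47 ribosome biogenesis genes 19 were lower and 1 higher (23.2% and 23.7% of all genes were), with a median of -0.07; 5 were shared, all lower, led by utp18 (-0.29 ± 0.04, adjusted p = 0.000122), dbp3 (-0.28 ± 0.04, adjusted p = 0.000331) and gar1 (-0.26 ± 0.04, adjusted p = 0.000463), which act in ribosomal RNA processing and modification. Without WT replicate 1, 11 were lower and 1 shared; 8 were shared and lower without WT replicate 2 and 1 without Y1F replicate 2. Of 39 amino acid biosynthesis genes 26 were lower and 2 higher, with a median of -0.19, and 12 were shared, all lower.

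The carbamoyl-phosphate synthase gene arg4 (strict), of arginine synthesis, had 579 and 607 CPM in S2A, 588 and 583 CPM in S7A and 591 and 596 CPM in Y1F, against 879 and 828 CPM in WT. The 6 mutant libraries were within a narrow band below WT, with a difference of -0.53 ± 0.04 (adjusted p = 6.17e-07; adjusted p among mutants = 0.922). The homocysteine synthase gene met17 had 52.4 and 64.5 CPM in S2A, 113 and 108 CPM in S7A and 72.8 and 68.96 CPM in Y1F, against 165 and 149 CPM in WT. It was lower in all 3 strains but least so in S7A, with a pooled difference of -1.03 ± 0.06 (adjusted p = 1.12e-07). Arginine synthesis genes arg12 (-0.51 ± 0.04) and arg3 (-0.46 ± 0.05), the leucine gene leu1 (-0.41 ± 0.05) and the lysine gene lys1 (-0.37 ± 0.04) were shared as well (adjusted p = 3.24e-06, 2.45e-05, 7.69e-05 and 1.27e-05). The genes arg3, leu1 and lys1 also serve as selectable markers in fission yeast strains. Calls of marker genes stand beside 23.2% of all genes lower and 23.7% higher. Of 7 such marker genes 5 were lower (3 without WT replicate 1) and 0 higher (0 at an unadjusted p under 0.05 and 0 in DESeq2), with differences between -0.46 and -0.02.

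**Figure D3:**
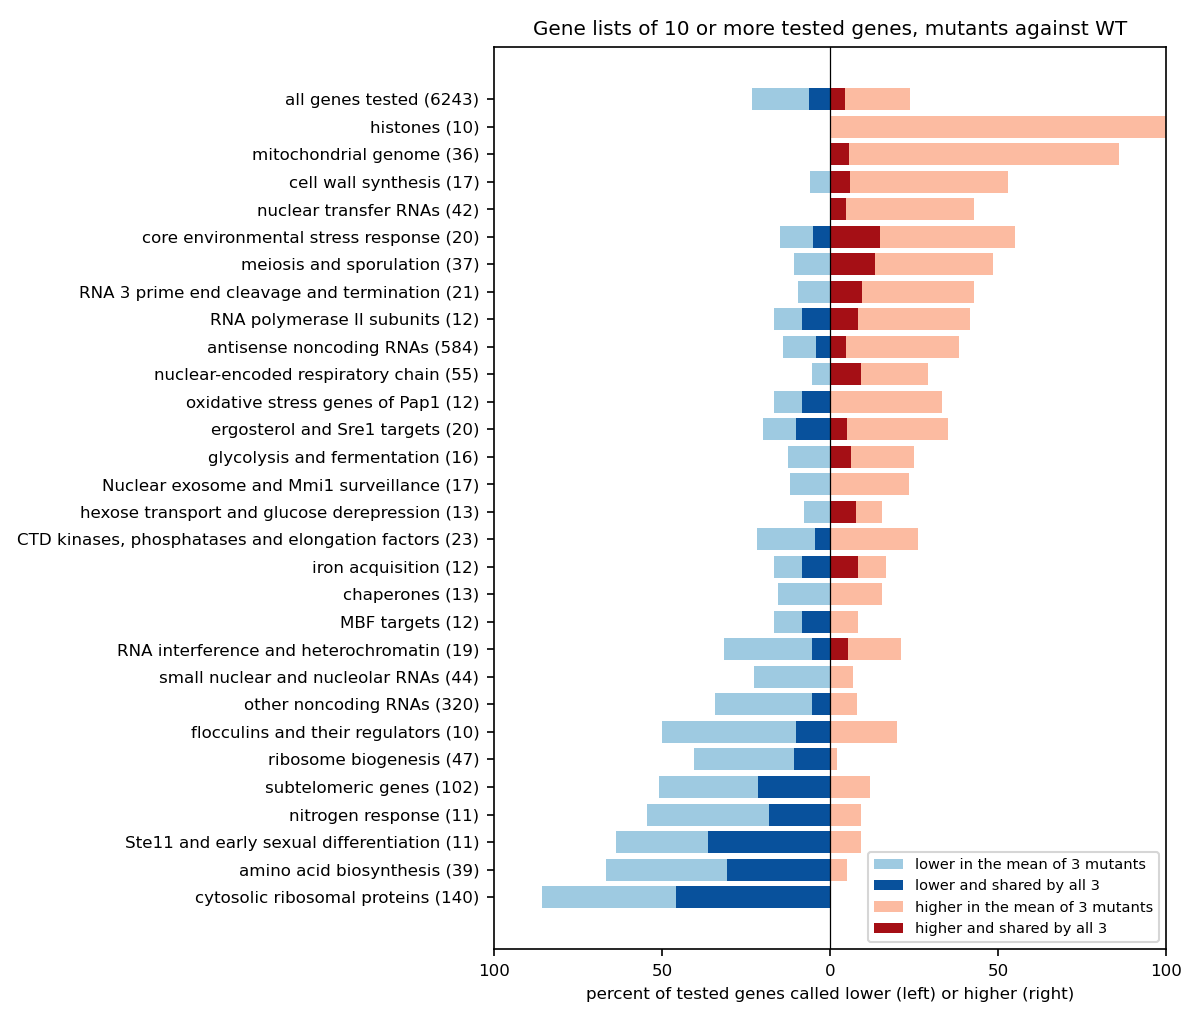
Percent of the tested genes of each list called lower (left) or higher (right) in the mean of the 3 mutants against WT, with the genes shared by all 3 in the darker colour; the number of genes tested is in brackets. Ribosomal protein genes reach furthest to the left, with 120 of 140 lower, and the 10 histone genes are all higher with no shared member.

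Among genes with the largest shared increases, otg2 (strict), a galactosyltransferase of glycoprotein sugar chains, had 9.19 and 10.3 CPM in S2A, 10.5 and 12.04 CPM in S7A and 7.13 and 7.90 CPM in Y1F, against 2.10 and 2.27 CPM in WT. The groups were far apart and the difference was 2.11 ± 0.16 (adjusted p = 9.07e-07). The G protein beta subunit gene gnr1 (strict) had 16.8 and 14.7 CPM in S2A, 18.3 and 19.2 CPM in S7A and 22.4 and 21.3 CPM in Y1F, against 4.98 and 5.43 CPM in WT, a difference of 1.84 ± 0.11 (adjusted p = 1.12e-07). The But2 family gene SPAC27D7.11c (strict) had 93.1 and 94.4 CPM in S2A, 116 and 134 CPM in S7A and 96.3 and 110.5 CPM in Y1F, against 42.2 and 32.5 CPM in WT, a difference of 1.51 ± 0.09 (adjusted p = 1.41e-07). The strain differences spanned 1.79 to 2.38, 1.61 to 2.06 and 1.32 to 1.74, and all 3 genes differed among the mutants (adjusted p = 0.00619, 0.00371 and 0.00416).

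Other increases were led by S7A. The uncharacterized gene SPBC19C7.04c had 48.6 and 47.2 CPM in S2A, 90.6 and 97.9 CPM in S7A and 21.1 and 23.1 CPM in Y1F, against 10.9 and 12.2 CPM in WT, and all 6 libraries lay above WT with a pooled difference of 2.01 ± 0.08 (adjusted p = 2.39e-09). The same order of strains held for SPCC737.04 (1.97 in S2A, 2.57 in S7A and 0.99 in Y1F), mug147 (1.61 in S2A, 2.07 in S7A and 0.70 in Y1F), the calcium ATPase gene cta3 (1.44 in S2A, 3.00 in S7A and 0.68 in Y1F) and the glycerophosphodiester transporter gene tgp1 (0.88 in S2A, 3.22 in S7A and 0.59 in Y1F). In tgp1, a gene of the phosphate response, the pooled difference of 1.56 ± 0.11 (adjusted p = 3.67e-07) was made up of a larger one in S7A than in the other strains, and the phosphatase gene pho1 (0.15 in S2A, 2.00 in S7A and -0.58 in Y1F) and the phosphate transporter gene pho84 (-0.34 in S2A, 0.30 in S7A and -0.75 in Y1F) were not shared.

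The glucose transporter gene ght5 had 233 and 279 CPM in S2A, 88.7 and 103 CPM in S7A and 144 and 74.2 CPM in Y1F, against 74.2 and 40.2 CPM in WT. The lower Y1F library and the higher WT library were equal to 3 digits, and the libraries differed widely within Y1F and within WT. The pooled difference was 1.26 ± 0.24 (adjusted p = 0.00102). Of the 13 hexose genes it was the only shared one, with 2 higher and 1 lower in all (23.7% and 23.2% of all genes were).

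Smaller increases were seen in genes of various roles. The glyceraldehyde-3-phosphate dehydrogenase gene gpd3 (strict) had 547 and 542 CPM in S2A, 510.4 and 556 CPM in S7A and 521 and 524 CPM in Y1F, against 375 and 280.05 CPM in WT, a difference of 0.70 ± 0.08 (adjusted p = 3.75e-05). The proteinase inhibitor gene pbi2 (0.68 ± 0.08), the tspO-like gene tsp0 (0.81 ± 0.06), the proteasome subunit gene pup1 (0.39 ± 0.04), the cap-binding complex gene cbc2 (0.40 ± 0.04), the centrin gene cdc31 (0.34 ± 0.04) and the GTPase gene rho1 (0.24 ± 0.04), a regulator of cell wall synthesis, were all strict (adjusted p = 4.12e-05, 1.19e-06, 1.48e-05, 8.6e-06, 3.38e-05 and 0.000162). Of these and gpd3, tsp0 differed among the mutants (0.88 in S2A, 0.89 in S7A and 0.65 in Y1F; adjusted p = 0.0116). The libraries of rho1 lay close together within each group, with 610.3 and 603 CPM in S2A, 603 and 603 CPM in S7A and 589 and 597 CPM in Y1F, against 508 and 507 CPM in WT. Among the most abundant shared genes that were higher, the ATP:ADP carrier gene anc1 of mitochondria (0.26 ± 0.04), the aldehyde dehydrogenase gene atd1 (0.36 ± 0.06) and the surface protein gene ecm33 (0.35 ± 0.05) were followed by but2 (0.21 ± 0.05), with adjusted p = 0.000212, 0.000529, 8.91e-05 and 0.00297.

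Over all tested genes 23.7% were higher and 23.2% lower in the pooled mean, the background for the lists of this paragraph. Of 20 core stress genes 11 were higher and 3 lower, with a median of 0.26. The shared ones were cta3, hsp9 (0.81 ± 0.07, adjusted p = 4.58e-06), a small heat shock protein, ish1 (0.46 ± 0.10, adjusted p = 0.0029) and, lower, the spore protein gene isp3 (-0.96 ± 0.12, adjusted p = 6.28e-05). In S2A 12 stress genes were higher and 3 lower, in S7A 14 and 4, and in Y1F 6 and 6. The strain medians of this list were 0.45 in S2A, 0.58 in S7A and near 0 in Y1F. Of 17 cell wall synthesis genes 9 were higher (5 without WT replicate 1) and 1 lower, and the glucanosyltransferase gene gas2 was shared (0.27 ± 0.04, adjusted p = 0.000157).

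A pooled call did not always stand for a common change (23.7% of all genes were called higher and 23.2% lower). All 10 histone genes were called higher, with a median of 0.17, yet 0 were shared (by the edgeR calls of the 3 strains) and the strain medians were -0.03 in S2A, 0.18 in S7A and 0.46 in Y1F. All 3 galactose genes were called lower with a median of -1.59, but the strain medians were 0.91 in S2A, 0.26 in S7A and -5.90 in Y1F, so that 1 strain set the pooled value. The galactokinase gene gal1 had differences of 0.81 in S2A, 0.54 in S7A and -8.13 in Y1F.

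Mitochondrially encoded genes were higher mainly in S2A and S7A. Of 36 tested genes 31 were called higher and 0 lower (0 lower at an unadjusted p under 0.05 and 0 in DESeq2), with strain medians of 0.74 in S2A, 1.02 in S7A and 0.05 in Y1F, and all 36 differed among the mutants. Only SPMIT.02 (0.96 ± 0.13, adjusted p = 8.16e-05) and SPMITTRNALEU.02 (0.71 ± 0.10, adjusted p = 0.00013) were shared. The class took 3.57% and 3.46% of counts in S2A, 3.65% and 3.55% in S7A and 2.67% and 2.86% in Y1F, against 2.10% and 2.70% in WT. A Y1F library lay between the WT libraries, so the groups overlapped (exact permutation test, two-sided p = 0.143). Of all tested genes 23.7% were higher and 23.2% lower in the pooled mean, and 4.44% were shared and higher. Of 55 nuclear genes of the respiratory chain 16 were higher and 3 lower, with a median of 0.06 and 5 shared, all higher, led by qcr10 (0.27 ± 0.04), cox16 (0.26 ± 0.05) and cox7 (0.23 ± 0.06), with adjusted p = 0.000232, 0.00114 and 0.00863; the call of cox7 was lost without WT replicate 1. Without that library 10 of the 55 genes were higher and 0 shared, and the shared ones numbered 1 without S7A replicate 1, 2 without S7A replicate 2 and 1 without Y1F replicate 2.

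**Figure D4:**
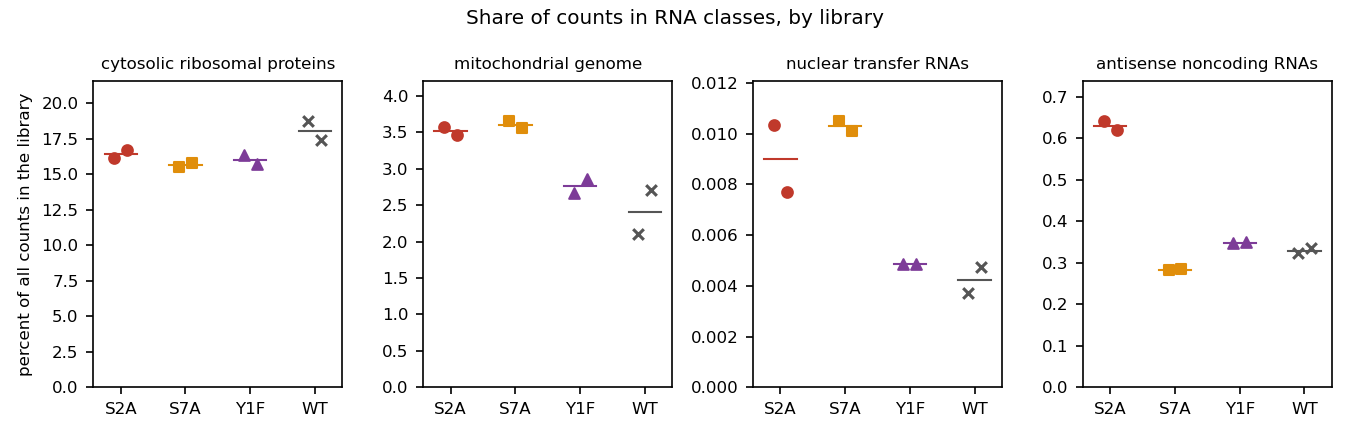
Percent of all counts of a library in 4 RNA classes, 1 point per library and a line at each strain's mean, with the 3 mutants left of WT. Ribosomal protein genes are lower in all 6 mutant libraries (15.5 to 16.7%, against 17.4 and 18.7% in WT); the S2A libraries hold 0.641 and 0.621% antisense RNA, more than any other library.

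Of 584 tested antisense noncoding RNAs, those lying mostly opposite a protein-coding gene, 225 were higher and 81 lower. In the pooled mean 23.7% of all genes were higher and 23.2% lower. The shared antisense RNAs numbered 28 higher and 24 lower, 8.90% in all beside 10.6% of all genes. Without WT replicate 1, 148 were higher and 16 shared and higher (17 shared and higher without S7A replicate 2). The strain medians were 0.88 in S2A, -0.07 in S7A and 0.05 in Y1F. Antisense RNAs took 0.641% and 0.621% of counts in S2A, 0.283% and 0.285% in S7A and 0.347% and 0.350% in Y1F, against 0.323% and 0.336% in WT. S2A and, by little, Y1F stood above WT and S7A below it (exact permutation test of mutants against WT, two-sided p = 0.714). Of 320 other noncoding RNAs without such an overlap, 26 were higher and 110 lower, with 1 and 17 shared (4.44% and 6.15% of all genes were). Those higher numbered 11 without WT replicate 1 and 17 without Y1F replicate 2, and those lower 61 without WT replicate 2; 10 or 11 were shared and lower without WT replicate 2 or either Y1F library. The kit keeps the strand, but no source used here gives the strand setting of the counting, so reads of a gene and of its antisense partner may not be fully separated.

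Single noncoding RNAs changed in all 3 strains by large factors from low levels. SPNCRNA.1403 (strict) had 12.9 and 12.8 CPM in S2A, 12.9 and 13.7 CPM in S7A and 15.6 and 14.9 CPM in Y1F, against 5.17 and 4.88 CPM in WT, a difference of 1.45 ± 0.11 (adjusted p = 9.07e-07). SPNCRNA.613 (strict) had 1.41 and 1.49 CPM in S2A, 0.958 and 0.844 CPM in S7A and 1.69 and 1.38 CPM in Y1F, against 6.09 and 5.01 CPM in WT, a difference of -2.15 ± 0.17 (adjusted p = 1.72e-06). SPNCRNA.842 had 55 counts in the 6 mutant libraries and 0 in WT, at least 4.94-fold higher against a floor of 3 counts over the 2 WT libraries. SPNCRNA.567 had 84 counts in mutant libraries and 2 in WT, a ratio of 11.3 (95% exact interval 3.04 to 95.0, counting error only).

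S2A stood out in several of them. The differences were 5.43 in S2A, 2.19 in S7A and 1.69 in Y1F for SPNCRNA.569, 4.57 in S2A, 1.70 in S7A and 2.79 in Y1F for SPNCRNA.997 and 3.54 in S2A, 1.90 in S7A and 1.70 in Y1F for SPNCRNA.955. A pair of RNAs that form foci in meiotic cells moved in opposite directions. The RNA lncRNA584 was higher (2.95 in S2A, 2.49 in S7A and 1.99 in Y1F) and omt3 was lower (-5.52 in S2A, -1.56 in S7A and -1.96 in Y1F), with pooled adjusted p = 0.000116 and 1.7e-07.

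Genes near the ends of chromosomes I and II shared decreases but no increase. Of 102 tested genes within 100 kb of an end, 52 were lower and 12 higher (6 higher without WT replicate 1), and 22 (21.6%) were shared, all lower. Elsewhere on these chromosomes 1150 of 4946 were lower and 1155 higher, and 295 and 221 were shared (10.4% in both directions together). Strain medians of the end genes were 0.23 in S2A, -0.23 in S7A and -1.24 in Y1F. Such genes are often repeated in the genome, so counts of single copies are uncertain.

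The start of chromosome II held a block of shared decreases that runs on past 100 kb from the end. Among its 40 outermost tested genes 20 were shared and lower and 0 shared and higher, with strain medians of -0.49 in S2A, -0.82 in S7A and -1.12 in Y1F. From SPBPB21E7.09 to the transporter gene abc3, chosen after the values were seen, 14 of 15 tested genes in a row were shared and lower. Genes not tested and IDs without an annotation were skipped. The other gene, SPBPB10D8.04c, had differences of 0.04 in S2A, -1.69 in S7A and 0.13 in Y1F. The ID SPNCRNA.1308 (strict, -2.43 ± 0.14) was shared and lower but, without an annotation, has no place in this order. The block includes SPBPB10D8.01, SPBPB10D8.02c, the permease genes SPBC359.01 (-0.87 ± 0.07) and aat1, the alanine racemase gene alr2 (-2.77 ± 0.26), pfl7 and the noncoding RNAs SPNCRNA.1307 (strict, -3.50 ± 0.22), SPNCRNA.1309 (-2.41 ± 0.20) and SPNCRNA.1310 (strict, -2.95 ± 0.35). Their adjusted p-values were 1.07e-06, 5.79e-06, 1.95e-07, 2.22e-06 and 4.22e-05.

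In the order of all annotated genes, where a gene that was not tested ends a run, the genome held 6 runs of at least 3 neighbouring shared genes, 5 lower and 1 higher. The end of chromosome I had 15 shared decreases among its 40 outermost genes, with a run of 5 from SPAC922.05c to the amino acid transporter gene cat1 (-0.52 in S2A, -0.17 in S7A and -1.36 in Y1F). The end of chromosome II had 1 shared increase and 0 shared decreases, with strain medians of 0.35 in S2A, -0.03 in S7A and -0.66 in Y1F.

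**Figure D5:**
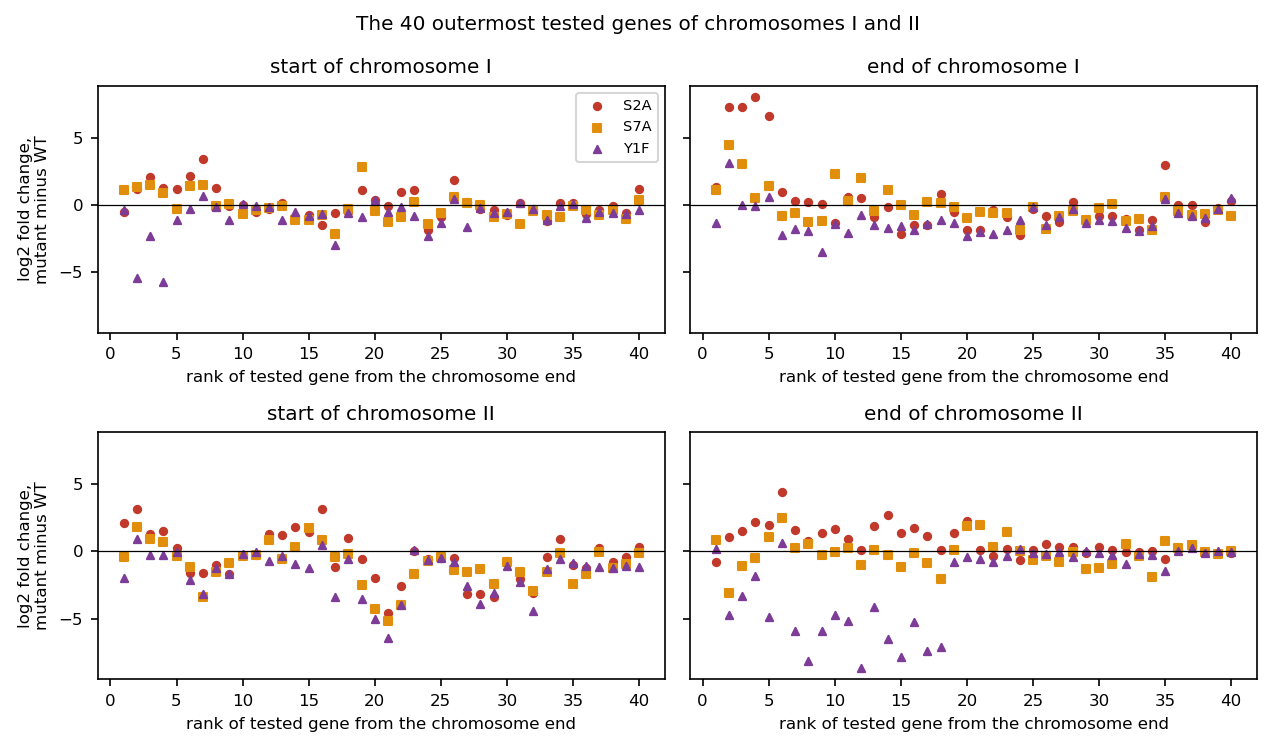
Log2 fold change against WT of the 40 outermost tested genes at both ends of chromosomes I and II, by rank from the end, for S2A, S7A and Y1F. At the start of chromosome II the 3 strains fall together from about rank 19 to rank 33, while at the end of chromosome II many Y1F points lie below -4 and the S2A points lie near or above 0.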

How the data were processed

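The authors deposited counts, whole numbers of reads per gene ID for 8 libraries. The labels' protocols give rRNA-depleted stranded total RNA, and the submitters' processing notes list build ASM294v2 and the tools deepTools, DESeq2, StringTie, featureCounts and HISAT2. Versions, strand setting and the treatment of reads shared by copies: not given in the sources used here. The annotation at hand is of another build, and 6797 of 7000 IDs matched it. It gave names, classes and gene order. Its coordinates also set the 100 kb from a chromosome end and the 50% overlap that defines antisense RNAs. No coordinates or sequences are printed. All IDs with 0 counts throughout (271) and others under the filter were left out.

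In R 4.3.3 with edgeR 4.0.16, filterByExpr (minimum count 10, minimum total 15) left 6243 genes, which were scaled by TMM and fitted with 1 mean per strain (4 residual degrees of freedom; biological coefficient of variation 4.44%). The contrast was the mean of S2A, S7A and Y1F minus WT, with Benjamini-Hochberg adjustment over all genes; a test with 2 degrees of freedom compared the mutants. DESeq2 1.42.0 was an alternative. Shares of counts were compared by an exact permutation test over libraries, which takes the libraries of 1 strain as independent. Lists are described by counts and medians beside all genes. On simulated data of 6099 genes, 50 genes each were set 1.25-, 1.5-, 2- and 4-fold apart from WT in all mutants. Of these, 60%, 94%, 96% and 100% were called for the pooled mean. In every strain as well, 40%, 86%, 96% and 100% were called, and 11 of 186 calls were false. In the data 71.0% of genes differed among the mutants. Recovery and false calls with such differences between strains were not tested, so these values do not give the error of the calls above. Figures used Python 3.11.15 and matplotlib 3.10.9.

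The members and lists were chosen with earlier results of these data known. By rule, the genes named were rpb1, rpb3 and the 5 protein-coding neighbours on each side of rpb1; those with the largest pooled change among shared genes, up to 12 protein-coding (at least 5 CPM) and 4 noncoding (at least 1 CPM) in each direction; up to 3 shared members per list; the 4 most abundant shared protein-coding genes each way; and the 4 each way, changed at least 2-fold, with the most even changes. Genes of the 47 called with 1 mean for all mutants, the SPBC460 IDs, list members that were not shared or not among the 3 largest, and the chromosome II block were named after their values were seen. Other settings were RLE scaling, scaling on protein-coding genes, no filter, at least 5 CPM in at least 2 libraries, a replicate block, leaving out each library or mutant strain, 1 mean for all mutants, a 2-fold threshold and another denominator for shares. Leaving out libraries or strains with 1 mean for all mutants was added after seeing the data.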

Additional observations from a re-analysis of the deposited data

Results flagged for a closer look

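The size of a shared change often differed between the mutants, in edgeR's quasi-likelihood test of equal means in S2A, S7A and Y1F. Of the 661 shared genes, 381 differed; adjusted p-values of named genes follow. Around rpb1, they were 0.000583 for rpb1 (smaller decrease in Y1F), 5.59e-10 for rpb3 (lower in S7A, higher in the others), 0.0287 for sfr1, 0.0424 for hrd3, 0.0157 for ngg1, 0.00586 for hmo1, 0.000127 for rec6 and 0.0079 for dpm2; of these, the pooled difference was called for rpb1 and rpb3.

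Among the shared increases, S2A was highest for mug62 (2.28e-08), dmc1 (1.51e-07), meu14 (3.49e-06), ght5 (0.000337), SPAC637.03 (0.000357), SPNCRNA.569 (2.32e-08), SPNCRNA.997 (6.75e-06), lncRNA584 (0.0151) and SPNCRNA.955 (4.5e-06). S7A was highest for otg2 (0.00619), SPBC19C7.04c (4.01e-10), SPCC737.04 (2.3e-07), cta3 (2.74e-08), tgp1 (3.71e-10), SPAC27D7.11c (0.00416) and mug147 (1.82e-07). Y1F was highest for gnr1 (0.00371).

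Among the shared decreases, S2A was lowest for mei2 (0.000193), mfm2 (1.25e-07), ste4 (6.95e-08), ngl1 (2.16e-08), omt3 (8.03e-06), SPNCRNA.1309 (0.00253) and vht1 (1.67e-05). S7A was lowest for SPAC11D3.10 (0.00582). Y1F was lowest for SPBPB10D8.01 (2.36e-08), pfl7 (0.017), SPBPB21E7.09 (4.16e-08), SPBC1683.04 (1.06e-07), fau1 (5.88e-05), atd2 (2.84e-07), isp5 (0.019), SPNCRNA.1307 (0.0154) and SPBC1683.02 (0.0163). The lowest place was nearly tied between S2A and Y1F for ngl1 and fau1. It was nearly tied between S7A and Y1F for SPNCRNA.1307 (-3.97 and -3.98).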

How the results depend on the processing

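Counts of genes higher and lower in the pooled mean (1479 and 1450) moved to 16 and 31 with 1 mean for all 6 mutant libraries, because differences between strains then enter the error, and to 203 and 118 with a 2-fold threshold. Leaving out each library gave 1026 to 1439 higher and 1013 to 1400 lower, 143 to 298 shared and higher, 227 to 409 shared and lower, and 3812 to 4632 differing among the mutants. The shared counts fell most without WT replicate 1 (157 and 253) and without Y1F replicate 2 (143 and 227), which kept 364 and 361 of the 661 genes. DESeq2 gave 146 shared and higher, and a 2-fold change in each mutant gave 24 and 29. With a replicate block the counts were 1438 and 1405 pooled and 258 and 353 shared. Deviations of same-numbered libraries from their strain means, in log2 CPM, correlated between -0.163 and 0.178. These weak correlations cannot say whether same-numbered libraries were handled together. Under RLE scaling, scaling on protein-coding genes and either filter setting no count moved by over 1.5 times. With 1 mean for all mutants, leaving out a strain gave 137 (S2A), 337 (S7A) and 347 genes (Y1F) in place of 47. Of 116 named genes, 86 lost their call with 1 mean for all mutants, cox7 lost it without WT replicate 1 and SPNCRNA.292 without WT replicate 2. The share of other noncoding RNAs, 0.0282 percentage points higher in the mutants, ranged from -0.0562 (without WT replicate 1) to 0.113 (without WT replicate 2), with -0.00624 without S2A replicate 2 and -0.0262 without S7A replicate 2; the cause was not tested. Among lists, mitochondrial genes shared and higher went to 14 of 36 without WT replicate 2 in place of 2, and ribosomal protein genes shared and lower to 18 without Y1F replicate 2, 20 without WT replicate 1, 32 without S2A replicate 1, 41 without S7A replicate 1 and 99 without WT replicate 2 in place of 64. With 2 libraries per strain and 2 for WT, the smallest exact p is 0.0714, and genes of a few counts per library limit what can be called.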

Other observations

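A few further groups had shared members, and their pooled calls stand beside 23.7% of all genes higher and 23.2% lower. In iron metabolism, the siderophore synthetase gene sib1 was higher in all 3 strains, with 579.6 and 594 CPM in S2A, 389.7 and 407 CPM in S7A and 361 and 389 CPM in Y1F, against 311 and 331 CPM in WT (0.47 ± 0.04, adjusted p = 5.08e-06 in edgeR), and fep1, the repressor of iron uptake genes, was lower (-0.22 ± 0.04, adjusted p = 0.00134); of 12 genes in that list 2 were higher and 2 lower. In ergosterol synthesis, erg2 was higher (0.29 ± 0.04) and erg31 (-0.28 ± 0.04) and hmg1 (-0.23 ± 0.04) were lower (adjusted p = 7.58e-05, 0.000119 and 0.000359), among 20 genes of which 7 were higher (4 without WT replicate 1) and 4 lower. In heterochromatin, the RNA-directed RNA polymerase gene rdp1 was higher (0.32 ± 0.04, adjusted p = 6.44e-05) and the silencing factor gene clr2 was lower (-0.38 ± 0.06, adjusted p = 0.000308), among 19 genes of which 4 were higher and 6 lower (2 lower without WT replicate 1). The purine salvage gene apt1 (-0.49 ± 0.03, adjusted p = 5.65e-07) was the shared member of 12 genes of the Pap1 list, 4 higher and 2 lower, and the cell cycle kinase gene mik1 (-0.30 ± 0.05, adjusted p = 0.000709) that of 12 MBF targets, 1 higher and 2 lower.

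Shared decreases were most frequent among the most abundant genes. When the tested genes were divided into 4 equal groups by mean level, 75, 82, 60 and 167 genes were shared and lower, low to high, and 47, 72, 86 and 72 were shared and higher, among 1560 or 1561 genes in each group. Of the 384 shared decreases, 64 were ribosomal protein genes. In the pooled mean 23.7% of all genes were higher and 23.2% lower. Of 42 tested nuclear tRNA genes, 18 were higher (8 without WT replicate 1 and 12 without WT replicate 2) and 0 lower by edgeR (0 lower at an unadjusted p under 0.05 and 0 in DESeq2), with strain medians of 1.19 in S2A, 1.33 in S7A and 0.09 in Y1F, at a share of 0.00806% of counts in mutant libraries and 0.00424% in WT (exact permutation test, two-sided p = 0.0714; adjusted p = 0.214).

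The lists with no shared member, or a single one, had these pooled calls, beside 23.7% of all genes higher and 23.2% lower. The exosome and Mmi1 list had 4 higher and 2 lower of 17, the Set2 and Clr6 complex II list 1 and 1 of 7, chaperones 2 and 2 of 13, copper uptake 1 and 0 of 4 (0 lower at an unadjusted p under 0.05 and 0 in DESeq2) and cell separation 2 and 5 of 9 (3 lower without WT replicate 1). Glycolysis had 4 higher and 2 lower of 16, with gpd3 shared. Small nuclear and nucleolar RNAs had 3 and 10 of 44 (4 lower without WT replicate 2 and 6 without S7A replicate 1), and Tf2 retrotransposons 0 and 1 of 5 tested (0 higher at an unadjusted p under 0.05; 0 higher and 0 lower in DESeq2).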
